A study of Mus musculus with 4 samples.

Results

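The glycolysis, gluconeogenesis and hypoxia genes examined here are 41 mouse genes, picked by name for their role and found on the arrays through the RefSeq accession of each probe. Of the 41, 40 had a probe, and 39 passed the filter on dim probes, which kept a probe if, in either group, both arrays showed it well above background. They stand among 19338 entries tested in all, 12815 named genes and 6523 probes that no accession named, each counted as a gene below. Pck1 had no probe that its accession named. Epas1, a hypoxia-inducible factor subunit, was well above background on 1 control array and no knock-down array and was not tested. All 39 tested genes were well above background on all 4 arrays, so none of them passed through 1 group alone.

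The arrays carried RNA of mouse embryonic stem cells from a Tc-inducible FBL-kd line. Fibrillarin (FBL) is the enzyme of box C/D small nucleolar ribonucleoproteins and methylates ribosomal RNA in the nucleolus. The control group was 2 samples grown with Tc at 1000 ng/mL, and the FBL-knock down group was 2 samples grown without it, both for 2 days on gelatin with LIF, the cytokine that keeps mouse stem cells undifferentiated. All 4 samples carried the same inducible construct, and every control but no knock-down sample had Tc, so the presence of Tc and the level of FBL cannot be told apart. It is not stated in the labels if replicates were separate cultures, if the line was 1 clone, or how FBL was lowered, and a p-value measures only the spread between these arrays, which may be technical.

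Glycolysis splits glucose into pyruvate in the cytosol and returns ATP, and pyruvate is then either reduced to lactate or oxidised in mitochondria. Gluconeogenesis runs back towards glucose through a few enzymes of its own, among them phosphoenolpyruvate carboxykinase and fructose-bisphosphatase. The hypoxia-inducible factors (HIF) bind DNA as pairs of an oxygen-labile alpha subunit and ARNT, and raise many glycolytic genes along with genes of mitophagy, pH balance and collagen modification. Mouse embryonic stem cells are known for a high glycolytic rate. The comparison asks which of these transcripts differed with FBL lowered, and whether the glycolytic enzymes and the hypoxia targets differed alike.

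Levels below are log2 of the processed spot signal less that of the 75th percentile on the same array, so that 1 unit is 2-fold and 0 is the 75th percentile. A change is the knock-down mean minus the control mean on that scale, with the standard error of the limma fit and n = 2 per group. A gene rose or fell where the limma p, adjusted by Benjamini-Hochberg over all genes tested, was under 0.05. Levels of different genes come from different probes, so their order does not rank transcript amounts. Sums of markers and the brightness of lists below describe signal only. Fbl itself had levels of 8.63 and 8.12 with Tc and 5.98 and 5.94 without it, and fell 5.34-fold. The 12 stem cell markers on the array were well above background everywhere, and their summed level, on the linear scale relative to the 75th percentile, was 1300 and 1043 with Tc and 1047 and 1334 without it. That of 8 fibroblast markers was 15.0 and 11.6 against 11.1 and 11.0, and Col3a1, Dcn and Postn were well above background on no array. The probes of Fn1 and Thy1 gave the highest signals in that sum, with changes of −0.015 and −0.76 that were not called. Among the stem cell markers 8 of 12 were lower, Tbx3 fell (−0.89), and Dppa5a, whose probe gave the highest signal in the sum, had a change of 0.23. Markers of neural ectoderm summed to 0.847 and 0.910 with Tc and 1.19 and 1.29 without it, where Neurod1 rose (2.70) and Pax6 had a change of −0.83. The probe of Nes gave the highest signal in that sum, with a change of 0.32 that was not called, and Sox1 had one of 0.02. Markers of mesoderm and primitive streak summed to 0.369 and 0.303 against 0.419 and 0.406, where Kdr rose (1.19) and the other 3 tested were lower. Endoderm markers summed to 0.379 and 0.274 against 0.294 and 0.264, with 0 called. Trophectoderm markers summed to 0.496 and 0.318 against 0.469 and 0.472. Of these Elf5 fell (−1.63), well above background on only 1 knock-down array, and the other 3 were higher. The part of these markers in the results below was not tested, and those that are named beyond Pou5f1 and Nanog were chosen after their values were seen. Pou5f1 had a change of −0.07 and Nanog one of −0.83 (limma adjusted p = 0.0609).

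Among the 39 tested genes, 2 rose and 2 fell. Fbp1, fructose-bisphosphatase of gluconeogenesis, rose 4.43-fold, and Pfkfb4, a regulator of phosphofructokinase activity, rose 1.88-fold. Pck2, the mitochondrial phosphoenolpyruvate carboxykinase, fell 4.62-fold, and Pfkp, the platelet-type phosphofructokinase, fell 2.51-fold. These 4 are 10.3% of the tested genes, where 6.4% of all 19338 genes were called, 3.82% as rising and 2.58% as falling. A share this close to the background is no result about the group as a whole. The median change of the 39 was −0.20, beside −0.06 over all genes, and 28 were lower (71.8%, against 56.2% of all genes) and 11 higher. Both knock-down values lay below both controls for 18 genes and above them for 5, together 59.0%, where the same held for 51.1% of all genes (30.6% below, 20.5% above). Of the 35 genes that did not pass, 26 had a 95% interval of the change that lay wholly between −1 and 1. In limma 8 of the 35 had an unadjusted p under 0.05, 7 of them lower. With the called genes included, 12 of the 39 had such a p, beside 3882 of all 19338 genes. Where a value below is given without 1 control, the fit takes its spread from the knock-down pair and from all genes, and assumes that the lone control varies alike. The SD across genes was 0.32 between the knock-down samples and 0.51 between the controls, and such fits called 4244 genes without control 1 and 2483 without control 2, against 1238. A gene that passes there and not with all 4 arrays is given as a value and is not counted as changed.

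**Figure D1:**
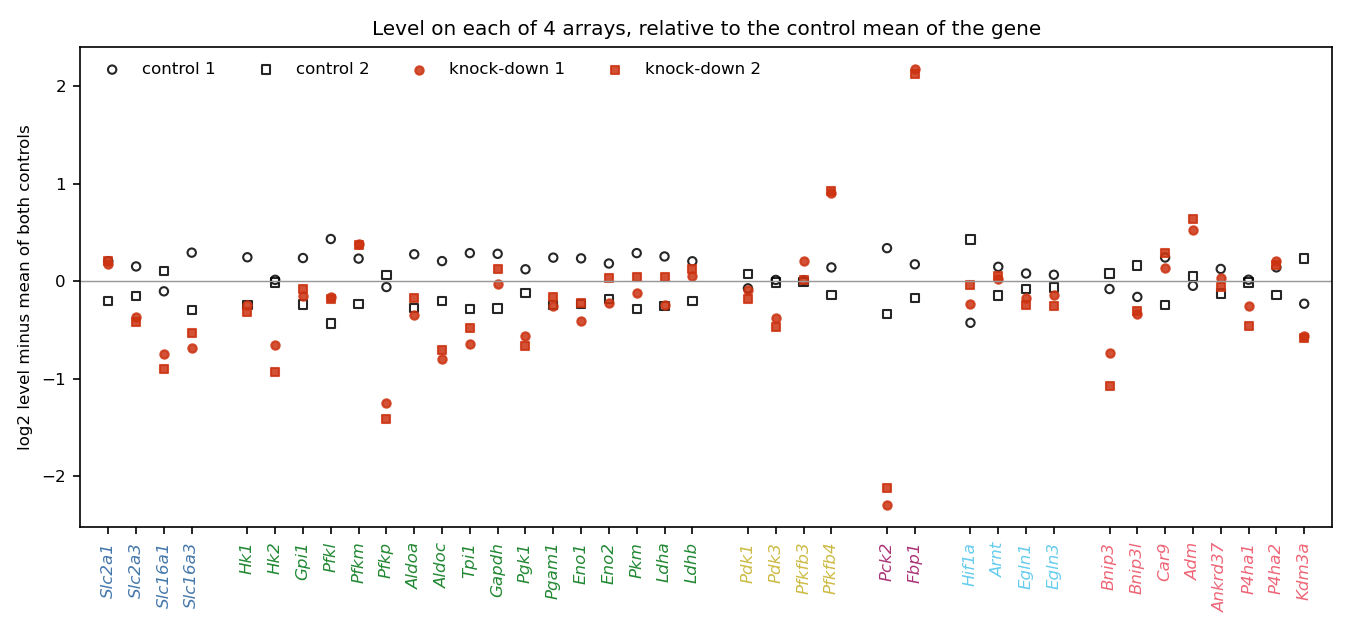
Level of each of the 39 tested genes on each array, in log2 units, after subtracting the mean of both controls for that gene. Open black symbols are controls and filled red symbols knock-down samples (circle for sample 1, square for sample 2), and gene names are coloured by role. Pck2 and Fbp1 lie more than 1.5 units from the controls, while for most glycolytic enzymes (green) the controls are as far apart as the groups.

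The largest changes in both directions lay in the gluconeogenic enzymes. Pck2 turns oxaloacetate into phosphoenolpyruvate inside mitochondria. Its level was 4.35 and 3.68 with Tc and 1.72 and 1.89 without it. The groups were far apart, and the lower control still lay more than 1.5 units above the higher knock-down sample. The change was −2.21 ± 0.27 (limma adjusted p = 0.00121), and 0.988% of all genes tested had a larger absolute change. Fbp1 removes a phosphate from fructose-1,6-bisphosphate, the step opposite to phosphofructokinase. Its level was −0.58 and −0.92 with Tc and 1.43 and 1.37 without it, so the groups did not overlap and the knock-down samples lay close together. The change was 2.15 ± 0.24 (limma adjusted p = 6.47e-04), and 1.1% of genes had a larger one. Each was read by 1 probe. Across the 4 fits that left out 1 array, the change of Pck2 ran from −2.55 to −1.87 and that of Fbp1 from 1.98 to 2.32, and both passed in each of these fits.

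Fbp2, which encodes the muscle-type fructose-bisphosphatase and lies next to Fbp1 among coding genes of the RefSeq table (assembly GRCm38.p6), also rose. Its level was −2.53 and −2.60 with Tc and −0.83 and −0.88 without it. The 4 values form a low and a high pair with little spread within either. The change was 1.71 ± 0.22 (limma adjusted p = 0.00158). Whether the probes of these related genes take up each other's transcript was not tested. The coding neighbours of the other called genes that were measured had changes near 0, with −0.15 for Dcaf11 beside Pck2, −0.10 for Pitrm1 beside Pfkp and 0.01 for Shisa5 beside Pfkfb4.

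To set the called genes beside what lies upstream of them, the 250 bases before each annotated start were read from the RefSeq promoter table (build GRCm38.p6), which held 38 of the 41 genes with 53 starts. Searched on both strands were ACGTG and GCGTG, the core letters of the hypoxia response element, and TGATGNAA, the core of the composite element that ATF4 binds with C/EBP partners. ACGTG shares letters with the E-box CACGTG, which matches on both strands and is then counted at both. Capitals mark every match, and each sequence runs 5′ to 3′ on the strand of its gene. The 4 called genes come first, then Ldha, the lactate dehydrogenase gene, at its upstream start with the most ACGTG matches of any gene here, as a contrast that did not pass.
Pck2, chr14:55540016-55540265, plus strand: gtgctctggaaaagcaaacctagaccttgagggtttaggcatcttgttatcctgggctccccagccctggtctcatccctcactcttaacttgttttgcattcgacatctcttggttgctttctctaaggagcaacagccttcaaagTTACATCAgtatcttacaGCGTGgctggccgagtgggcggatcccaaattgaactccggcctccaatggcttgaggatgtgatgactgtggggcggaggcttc
Fbp1, chr13:62888283-62888532, minus strand: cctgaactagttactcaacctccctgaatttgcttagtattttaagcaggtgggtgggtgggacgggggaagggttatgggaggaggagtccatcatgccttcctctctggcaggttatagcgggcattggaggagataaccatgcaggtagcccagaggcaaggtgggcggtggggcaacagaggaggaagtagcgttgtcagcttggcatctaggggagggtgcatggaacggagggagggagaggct
Pfkp, chr13:6648772-6649021, minus strand: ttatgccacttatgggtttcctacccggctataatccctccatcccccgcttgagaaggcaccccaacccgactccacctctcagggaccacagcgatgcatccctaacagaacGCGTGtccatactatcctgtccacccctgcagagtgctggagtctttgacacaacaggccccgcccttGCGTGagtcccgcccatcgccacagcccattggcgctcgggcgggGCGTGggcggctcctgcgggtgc
Pfkfb4, chr9:108991652-108991901, plus strand: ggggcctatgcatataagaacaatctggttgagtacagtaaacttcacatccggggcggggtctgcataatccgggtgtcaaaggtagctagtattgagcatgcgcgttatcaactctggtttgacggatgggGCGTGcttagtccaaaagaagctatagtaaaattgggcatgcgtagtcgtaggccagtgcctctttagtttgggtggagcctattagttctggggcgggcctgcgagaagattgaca
Ldha, chr7:46845554-46845803, plus strand: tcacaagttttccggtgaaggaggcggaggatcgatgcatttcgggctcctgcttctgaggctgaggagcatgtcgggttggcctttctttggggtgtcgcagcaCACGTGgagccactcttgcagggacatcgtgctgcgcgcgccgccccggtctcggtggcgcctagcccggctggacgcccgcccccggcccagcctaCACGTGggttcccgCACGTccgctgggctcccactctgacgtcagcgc

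Pck2 held the only TGATGNAA match among the 53 windows, read as TTACATCA on the gene's strand and starting 103 bases before the annotated start, where 3.45% of the 32851 windows of all genes held one. It also held 1 GCGTG, 85 bases before the start. Pfkp held 3 GCGTG matches, Pfkfb4 held 1, and Fbp1 held none of the 3 motifs. In Ldha 5 ACGTG matches were counted, 4 of them in 2 E-boxes, and its change was −0.10, with −0.35 at its other probe. At least 1 hypoxia core, ACGTG or GCGTG, lay in 41 of the 53 windows (77.4%), against 38.6% of all windows. It did so in 21 of 28 windows of glycolytic enzymes and 7 of 9 windows of the hypoxia targets. The genes were picked for their roles in glycolysis and hypoxia, so these shares are no test of them. Windows of close starts of the same gene overlap, as in Aldoa and Eno1, and count some matches again. These matches describe letters only, and the genes that hold them include both called genes and genes that did not pass.

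Of the 17 glycolytic enzymes, from hexokinase to lactate dehydrogenase, 1 fell and 0 rose, which is 5.88% called against 6.4% of all genes. The median change was −0.21, and 14 were lower. For 6 of them (35.3%) both knock-down values lay below both controls, near the 30.6% of all genes. The enzyme that fell, Pfkp, is 1 of 3 phosphofructokinases, which commit glucose to glycolysis. Its level was 2.75 and 2.87 with Tc and 1.56 and 1.40 without it. The controls lay close together and well above both knock-down values. The change was −1.33 ± 0.23 (limma adjusted p = 0.00674), and at the gene's other probe it was −0.56. The call of Pfkp ended with the mean over its probes (−0.94, adjusted p = 0.0512) and within slide 1, without knock-down 2 (−1.25, adjusted p = 0.150). The other phosphofructokinases were not called. Pfkm, the muscle type, had levels of 3.07 and 2.61 with Tc and 3.22 and 3.21 without it, a change of 0.37 with an interval from −0.17 to 0.92. Without control 1 its change was 0.61, with an adjusted p of 0.0416 that rests on knock-down samples 0.01 apart. Pfkl, the liver type, had a change of −0.18 with an interval from −0.84 to 0.48, and its controls, 0.86 apart, enclosed both knock-down values.

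At the first step, Hk2, the inducible hexokinase, had levels of 5.18 and 5.16 with Tc and 4.52 and 4.24 without it. The groups did not overlap, and the change of −0.79 ± 0.23 did not pass (limma adjusted p = 0.0782). Without control 1 the change was no larger (−0.78) but had an adjusted p of 0.0451, and without control 2 it was −0.81 with an adjusted p of 0.0557. Hk1, the housekeeping hexokinase, had a change of −0.28, with 1 of its control values all but equal to a knock-down value. Gpi1, glucose phosphate isomerase, had a change of −0.12 with overlapping groups.

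Of the aldolases, which cut the 6-carbon sugar, Aldoc, the brain type, had levels of 1.80 and 1.39 with Tc and 0.80 and 0.89 without it. Its change of −0.75 ± 0.24 did not pass (limma adjusted p = 0.109), and without control 2 it was −0.96 and did (adjusted p = 0.0260). Aldoa, the type found in most tissues, had a change of −0.26 with overlapping groups. Tpi1, triose phosphate isomerase, had a change of −0.56 (limma adjusted p = 0.266) and passed without control 2 (−0.85, adjusted p = 0.0365). Gapdh, the dehydrogenase often used as a reference gene, had levels of 8.75 and 8.19 with Tc and 8.44 and 8.59 without it. The knock-down values fell between the controls, and the change was 0.05 with an interval from −0.53 to 0.62.

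Pgk1, phosphoglycerate kinase, which makes the first ATP of the pathway, had levels of 7.67 and 7.43 with Tc and 6.99 and 6.89 without it. The groups did not overlap, and its probes gave −0.61 and −0.63, but the change did not pass (limma adjusted p = 0.169) except without control 2 (−0.73, adjusted p = 0.0420). The enzymes after it showed smaller changes. Pgam1, phosphoglycerate mutase, had −0.21, Eno1, the common enolase, −0.31, and Eno2, the neuronal enolase, −0.10. Pkm, pyruvate kinase, had −0.04, and the lactate dehydrogenases Ldha and Ldhb had −0.10 and 0.09. At these probes the groups of all 6 overlapped, and their 95% intervals lay between −0.87 and 0.62. The other probe of Ldha gave −0.35, with both knock-down values (7.473 and 7.605) below both controls (8.172 and 7.608), and that of Eno2 gave −0.24.

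**Figure D2:**
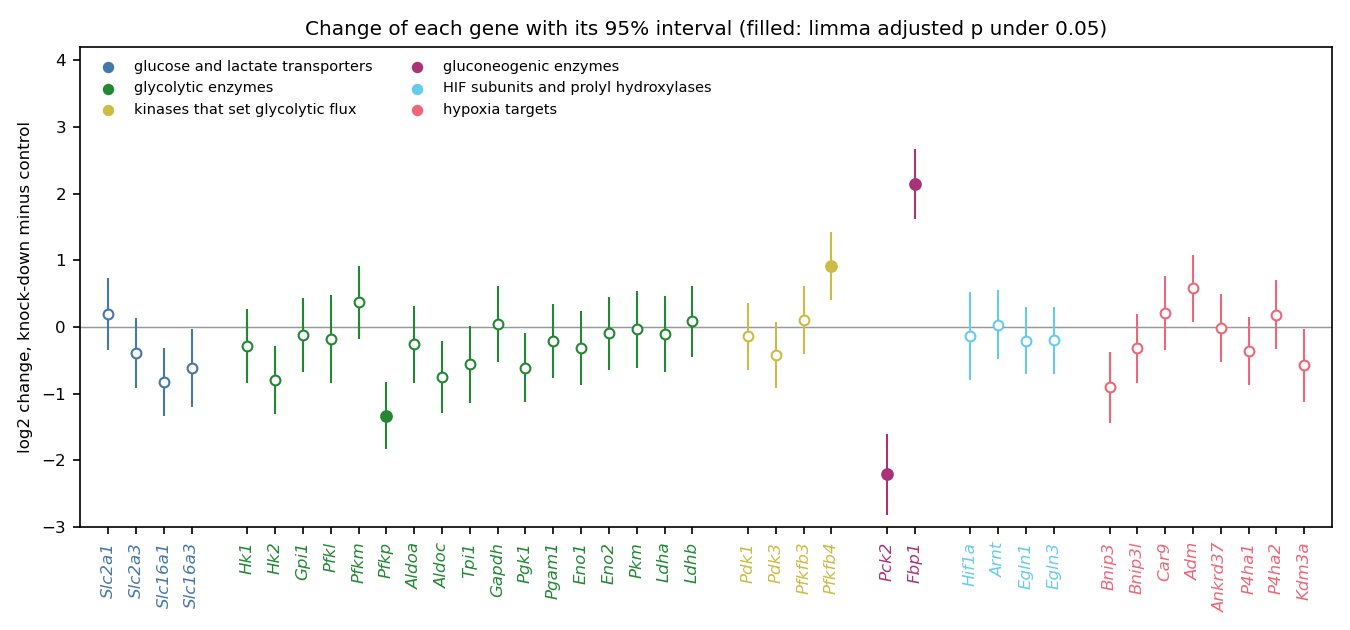
Log2 change (knock-down minus control) of the 39 tested genes, coloured by role, with the 95% interval of the limma fit as a vertical line. Filled points passed an adjusted p under 0.05 and open points did not. Only Pfkp, Pfkfb4, Pck2 and Fbp1 are filled, and Bnip3, Slc16a1, Hk2 and Aldoc are the lowest open points.

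The enzymes also differed between the controls. Control 2 lay below control 1 for 16 of the 17, Pfkp being the exception, with a median difference of −0.47, while over all genes tested control 2 was lower for 62.6%, with a median of −0.19. For 13 of the 17 the controls differed from each other by more than the groups did, as for 58% of all genes. Against control 1 alone the median change of the enzymes was −0.53 with 16 lower, and against control 2 alone it was 0.04 with 7 lower. The same medians over all genes were −0.13 and 0.00. Over the 2146 genes with a mean level of at least 4 they were −0.25 and 0.10, and over the 12 enzymes at that level −0.49 and 0.08. The direction of the enzymes as a group thus depended on the control array. The 7 that were lower against either control were Hk1, Hk2, Pfkp, Aldoc, Tpi1, Pgk1 and Eno1, of which Hk1 (−0.04) and Eno1 (−0.08) were so by little against control 2.

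**Figure D3:**
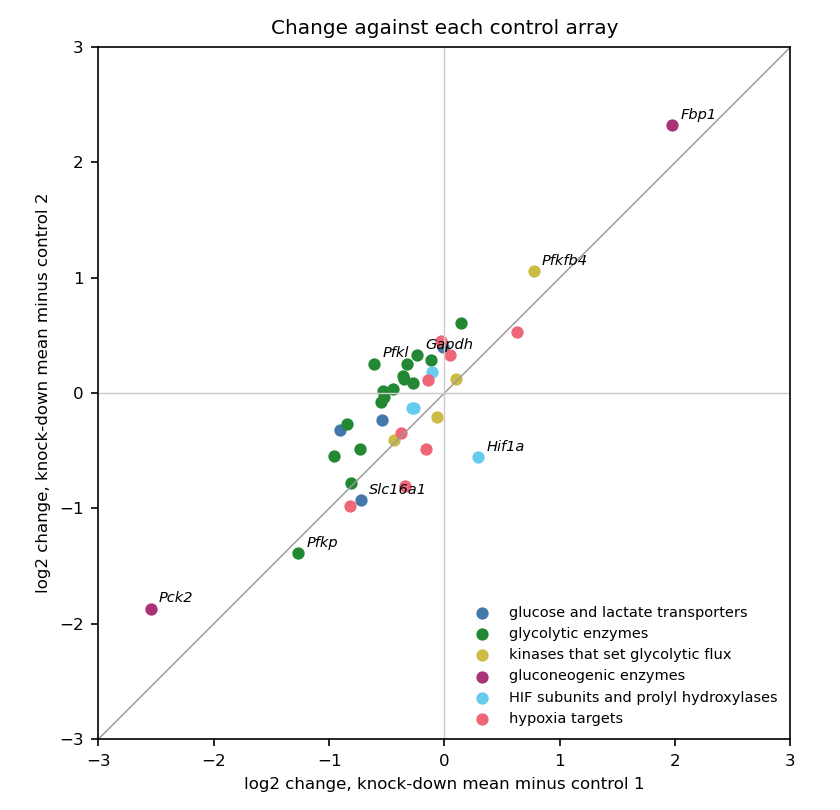
Log2 change of the 39 tested genes against control 1 (horizontal axis) and against control 2 (vertical axis), using the mean of both knock-down samples, coloured by role. The grey diagonal marks equal changes. Most glycolytic enzymes (green) lie above the diagonal and around 0 on the vertical axis, while Pck2, Pfkp, Pfkfb4 and Fbp1 keep their sign on both axes.

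None of the 4 transporters passed, where 6.4% of all genes did. Slc2a1 (GLUT1) and Slc2a3 (GLUT3) bring glucose into the cell, and Slc16a1 (MCT1) and Slc16a3 (MCT4) carry lactate and other monocarboxylates. Slc16a1 had levels of 3.46 and 3.66 with Tc and 2.81 and 2.66 without it. The groups were well apart, and its 3 probes gave −0.83, −0.95 and −0.44. The change of −0.83 ± 0.23 narrowly missed the threshold (limma adjusted p = 0.0648) with both controls. With 1 control left out it had an adjusted p of 0.0257 without control 1 (−0.93) and, though smaller, of 0.0477 without control 2 (−0.72). Slc16a3 had levels of 5.47 and 4.89 against 4.49 and 4.64, with a change of −0.61 (limma adjusted p = 0.225) that passed without control 2 (−0.90, adjusted p = 0.0325). Slc2a3 had a change of −0.39 and Slc2a1 one of 0.19, with intervals from −0.91 to 0.13 and from −0.35 to 0.73.

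Of the 4 kinases that set the flux through glycolysis, 1 rose (25% called, against 6.4% of all genes). A share of so few genes is no result about the list. PFKFB enzymes make and break fructose-2,6-bisphosphate, the strongest activator of phosphofructokinase, and PDK enzymes switch off pyruvate dehydrogenase. Pfkfb4 had levels of 0.56 and 0.28 with Tc and 1.32 and 1.34 without it. Both knock-down values lay above both controls and were nearly equal. The change of 0.91 ± 0.23 passed narrowly (limma adjusted p = 0.0456). Within slide 1, without knock-down 2, it was 0.91 and did not pass (adjusted p = 0.602), nor did it without knock-down 1 (0.92, adjusted p = 0.443). Each of these fits estimated 1 common variance for all genes, so that passing turned on the size of the change alone. Pfkfb3 had a change of 0.11, Pdk1 one of −0.14 and Pdk3 one of −0.42, with −0.80 at the other probe of Pdk3.

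The HIF subunits and the prolyl hydroxylases that mark the alpha subunit for destruction showed no call among the 4 tested. Over all genes 6.4% were called. Hif1a, the oxygen-labile subunit, had levels of −0.06 and 0.79 with Tc and 0.14 and 0.33 without it. The controls enclosed both knock-down values, and the change was −0.13 with an interval from −0.79 to 0.53. It was 0.29 against control 1 and −0.56 against control 2. Arnt, the constant partner, had a change of 0.04, and the hydroxylases Egln1 and Egln3 had −0.21 and −0.20, with intervals from −0.71 to 0.31 over both. Epas1 had levels of −6.24 and −5.85 with Tc and −6.34 and −6.11 without it, near background.

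None of the 8 hypoxia targets outside glycolysis passed, where 6.4% of all genes did. Their median change was −0.17, 5 were lower, and control 2 was below control 1 for 4 of 8, with a median difference of 0.03. Both knock-down values lay below both controls for 4 of the 8 (50%, against 30.6% of all genes). They lay above both controls for 2, as for 20.5% of all genes. Shares of so few genes are no result about the list. Bnip3, a mitophagy receptor, had levels of 2.63 and 2.79 with Tc and 1.98 and 1.64 without it. The groups did not overlap, and the change of −0.90 ± 0.24 narrowly missed the threshold (limma adjusted p = 0.0538). With control 2 as the only control it was −0.98 with an adjusted p of 0.0361, and with control 1 alone −0.82 with 0.0636. Its relative Bnip3l had a change of −0.32, and one of −0.04 with overlapping groups at its other probe. Kdm3a, a histone demethylase, had levels of 2.07 and 2.53 against 1.74 and 1.71, with a change of −0.57 (limma adjusted p = 0.226) that was −0.81 and passed without control 1 (adjusted p = 0.0272). Adm, the peptide hormone adrenomedullin, had levels of −4.75 and −4.65 with Tc and −4.17 and −4.07 without it. It lay higher in both knock-down samples, and its change of 0.58 did not pass (limma adjusted p = 0.180). Car9, carbonic anhydrase IX, had a change of 0.21, Ankrd37 one of −0.02, and the collagen prolyl hydroxylase subunits P4ha1 and P4ha2 had −0.36 and 0.19.

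Set side by side, the glycolytic enzymes and the hypoxia targets had median changes of −0.21 and −0.17, a difference of −0.04. The median level of the list had an SD between replicate arrays of 0.30 for the enzymes and 0.14 for the targets. That SD follows the gene in the middle of the list and is not the spread of the median change. Taken gene by gene, control 2 minus control 1 had a median of −0.47 for the enzymes and 0.03 for the targets. Knock-down 2 minus knock-down 1 had medians of 0.09 and −0.03. With the mean over each gene's probes the medians were −0.23 for the enzymes and −0.10 for the targets. Calls in the main fit numbered 1 of 17 and 0 of 8, where 6.4% of all genes were called. Lists this small cannot be told apart by such counts. The median change of the targets was −0.15 against control 1 and −0.12 against control 2, but single targets moved with the control in both directions. Kdm3a had −0.34 and −0.81 against them, Bnip3l −0.16 and −0.48, and Car9 −0.03 and 0.45. None of the 8 targets had a mean level of at least 4, as 12 of the 17 enzymes did, so the lists also differ in brightness. Whether the lists follow the controls differently was not tested. In the targets the single changes spread from −0.90 to 0.58 and in the enzymes from −1.33 to 0.37. Medians of so few genes carry no test here.

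Further genes of the pathway were counted in 5 lists. Of 22 tested isozymes and relatives in glycolysis and gluconeogenesis 1 rose, Fbp2, and 0 fell, which is 4.55% called against 6.4% of all genes. Their median change was 0.05, and 8 were lower (36.4%, against 56.2% of all genes). Of 10 genes of pyruvate entry into mitochondria 1 fell, which is 10% called against 6.4% of all genes. It was Pdha1, a subunit of pyruvate dehydrogenase, with levels of 4.66 and 4.57 against 3.82 and 3.64. The change of −0.88 ± 0.23 was just past the threshold (limma adjusted p = 0.0488), and its other probe gave −0.89. In this list 8 of the 10 genes were lower (80%, against 56.2% of all genes), with a median of −0.37. The other 2 were higher, by up to 0.65. With so few genes these shares are no result about the list. The call of Pdha1 ended without knock-down 1 (−0.97, adjusted p = 0.381) and without knock-down 2 (−0.79, adjusted p = 0.820). None of 7 pentose phosphate genes passed in limma, none had an unadjusted p under 0.05, and their median was 0.00.

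Of 32 other hypoxia-inducible genes 3 rose and 2 fell, which is 15.6% against 6.4% of all genes. Their median change was −0.14 and 24 were lower (75%, against 56.2% of all genes). Vegfa, the endothelial growth factor, had levels of 0.96 and 0.87 with Tc and −1.40 and −1.50 without it. That pair lay more than 2 units below the controls, and its 3 probes gave −2.37, −1.76 and −2.02. Stc2, a secreted glycoprotein, fell with a change of −1.05 ± 0.23, a call that ended at a similar size without knock-down 1 (−1.13, adjusted p = 0.210) and without knock-down 2 (−0.97, adjusted p = 0.486). Cxcr4, a chemokine receptor, rose with levels of −5.32 and −5.58 against −3.51 and −3.22, and its change of 2.08 was 0.77 under normexp. Plod2, a collagen lysyl hydroxylase, rose by 1.83 ± 0.25. The third to rise, Ddit4 (1.66), is named outside the rule for naming genes. Among 11 regulators of HIF 1 fell, which is 9.09% called against 6.4% of all genes. It was Siah2, a ubiquitin ligase that acts on the prolyl hydroxylases, with a change of −1.44 ± 0.23 that was −0.96 under normexp.

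**Figure D4:**
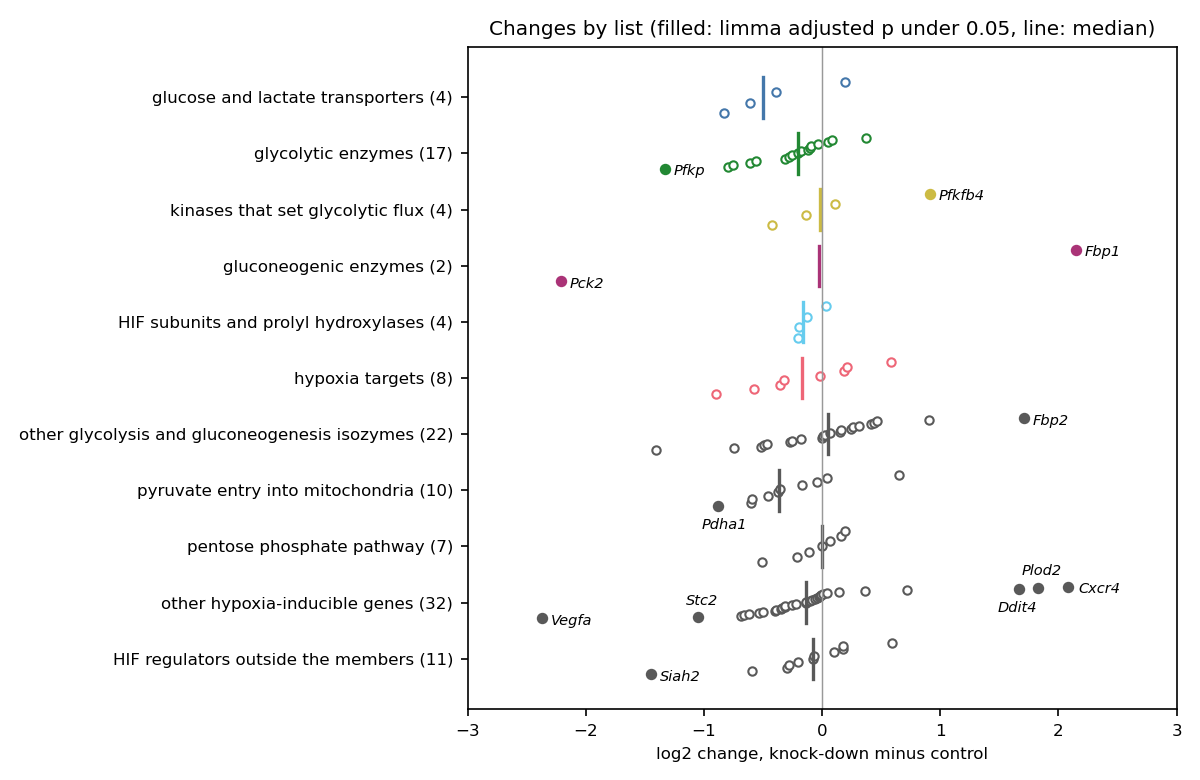
Log2 change (knock-down minus control, horizontal axis) of each tested gene, by list, with the number tested in brackets and the median as a vertical line. Filled points passed a limma adjusted p under 0.05 and carry their names, and open points did not. Medians lie between −0.50 and 0.05, and both gluconeogenic enzymes lie beyond 2 units on opposite sides.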

How the data were processed

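RNA of 4 samples was hybridised to 1-colour Agilent arrays, 1 array each. Per the file headers, the scans were quantified in version 10.7.3.1 of Agilent Feature Extraction, and the deposited intensity of a spot had background removed and spatial trends taken out, with no scaling from array to array. The table of values the authors deposited is in log2. Its entries follow the log2 processed signal minus a constant per array to within 0.01 for all 232 values of the 58 probes described here, with column medians of −3.85, −3.98, −3.94 and −3.91. Its 75th percentiles lie at 0, so scale and direction are known and probes were not centred. Which software made it is not given in the sources.

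Spots of a probe were averaged after outlier flags were left out, and log2 signals were shifted to each array's 75th percentile, which was a processed signal of 558 and 801 with Tc and 635 and 501 without it. An array had 24497 to 26404 of 41174 probes well above background and no saturated spot. The number of arrays limits the precision. RefSeq accessions named 24375 probes with 1 gene each, and 16799 stayed unnamed. A gene was read by its brightest tested probe. Groups were compared with limma 3.58.1 (lmFit, eBayes, two-sided) in R 4.3.3. Both controls and knock-down 1 lay on slide 1 and knock-down 2 on slide 2, so the fit with slide as a block equals the fit without knock-down 2. The normexp alternative (offset 50) used the median spot signal, because the files hold no mean signal. Other alternatives were the value table, quantile normalization, the percentile over bright probes, the filter on dim probes, the variance prior, the mean over probes, the replicate number as a block and leaving out each array. The genes and lists were chosen with earlier results of these data known. Named genes are Fbl, all 41 genes of the set, Pou5f1, Nanog, and up to 2 rising and 2 falling called genes of each further list. Some genes of the further lists are not reported here and were left out of their counts.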

Additional observations from a re-analysis of the deposited data

How the results depend on the processing

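Without the filter on dim probes limma called 0 genes, 0 of the 39 described here, with 2967 unadjusted p under 0.05 in all and 8 among the genes described here. There Fbl had an adjusted p of 0.108, and Pck2 had an adjusted p of 0.132, Fbp1 0.111, Pfkp 0.202 and Pfkfb4 0.393. Called genes of the set numbered 8 with normexp, 8 with trend, 8 with trend and robust, and 7 with only probes well above background on all arrays, where the gains were Slc16a1, Hk2 and Bnip3, joined by Aldoc in the first 3. Over all genes 2150 were called with trend and robust. With slide as a block 573 genes and 2 of the set (Pck2 and Fbp1) were called. Leaving out 1 array gave 573 to 4244 genes, 2 to 9 of the set, and a median change of the enzymes of −0.53 to 0.035 and of the targets of −0.18 to −0.11. The replicate number as a block called 1746 genes and 5 of the set, the gain being Bnip3 (adjusted p = 0.0404). The fits with normexp and with this block estimated 1 common variance for all genes. Passing there turned on the size of the change alone. The replicate numbers do not show a pairing: control 2 minus control 1 and knock-down 2 minus knock-down 1 correlated at r = 0.003 across genes, which are not independent replicates. No call of the set changed sign in any of the 15 alternatives. The value table, quantile normalization and the percentile over bright probes kept 2 rises and 2 falls, and the call of Pdha1 ended in the last 2 of these (adjusted p = 0.0681 and 0.0549). With 2 arrays per group, the smallest called change was 0.87 and no smaller one was called.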
